A study of Mus musculus with 4 samples.

Results

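The Bcl2 family was followed in liver mononuclear cells of mice with ConA hepatitis through 10 of its genes, out of 31053 genes counted. They were taken by symbol and were the survival genes Bcl2, Bcl2l1, Mcl1, Bcl2a1a, Bcl2a1b and Bcl2a1d, the pore-forming gene Bax, and Bcl2l11, Bbc3 and Pmaip1, which encode the sensor proteins BIM, PUMA and NOXA. The study asked how activation of the aryl hydrocarbon receptor (AhR), a transcription factor that ligands activate, alters the liver immune cells in hepatitis caused by concanavalin A (ConA), a plant lectin that stimulates T cells. The sex of the mice and the number behind a library were not given in the sources used here. All 4 libraries came from livers of C57BL/6 mice 8 to 10 weeks old. The Naïve library came from mice without ConA. The ConA+Veh library came from mice given ConA and the oil vehicle, ConA+TCDD from mice given ConA and the dioxin TCDD, a ligand of the AhR that is broken down slowly, and ConA+FICZ from mice given ConA and FICZ, a ligand that cells break down rapidly. Livers of the ConA groups were taken 24 hours after ConA. The ConA+FICZ library is not described in the study's text, so its agents are known from its label alone, with no timing or vehicle for FICZ. Cells were released by dissociation of the whole liver and enriched on a Percoll gradient, so the libraries hold the cells that this procedure recovered.

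The family sets whether a cell opens the outer membrane of its mitochondria, the step that releases cytochrome c and starts caspases. Bax, once active, forms the pores. Bcl2, Bcl2l1 (BCL-XL), Mcl1 and the A1 proteins of the Bcl2a1 genes bind other members of the family, the sensors among them, and keep the membrane closed. The sensors carry only the BH3 stretch of the family and take the survival proteins out of action when growth factors are withdrawn, when DNA is damaged or when an immune response ends. Resting T cells are known for their dependence on BCL2, neutrophils for their dependence on MCL1, and maturing red cells for their dependence on BCL-XL. A1 is an early target of NF-κB in activated leukocytes.

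Values below are given in the order Naïve, then ConA+Veh, then ConA+TCDD, then ConA+FICZ unless said otherwise. The libraries held 2086, 2779, 1880 and 2555 cells with 5952445, 19252211, 12077209 and 16017797 unique molecular identifiers (UMIs, each counting 1 captured RNA molecule). Any 2 libraries shared between 4 and 15 cell barcodes. Each cell was put in a class by 11 lists of 6 marker genes, and the class needed at least 2 detected markers and 2 more than any other list. The gate gave 1085, 819, 398 and 791 B cells, 439, 743, 592 and 529 T cells, 109, 213, 155 and 163 NK cells, 69, 193, 31 and 189 phagocytes and 24, 95, 38 and 258 neutrophils. The own markers of these classes summed to between 1799.6 and 170095 CPM (counts of a gene for 1000000 UMIs of the class), and in the other gated cells of the same library to between 10.7 and 93.5 CPM. The cells had been chosen by these markers, and the other gated cells were pooled. In neutrophils alone the phagocyte list summed to 1904, 2443, 2534 and 1553 CPM. The phagocytes had little of the resident Kupffer cell markers: Clec4f, Vsig4 and Timd4 had levels between 0 and 6.16 CPM in each library, whereas C1qa, a complement gene of tissue macrophages, had 563, 814, 271 and 1199 CPM and the monocyte gene Ly6c2 had 1236, 1385, 736 and 1403 CPM. Of the AhR target genes, Cyp1a1 gave 24, 2, 17 and 104 UMIs over all cells, or 4.03, 0.104, 1.41 and 6.49 CPM of the library. Ahrr gave 2, 0, 1 and 10 UMIs. Tiparp gave 204, 650, 387 and 592 UMIs, which at the depths of the libraries were 34.3, 33.8, 32.0 and 37.0 CPM. Cyp1a1 was thus lowest in ConA+Veh and highest in ConA+FICZ. The gate also held 26, 4, 1 and 166 hepatocytes, and their part in the Cyp1a1 values was not tested. Each condition had 1 library. Differences between conditions therefore have no replicate check and no test, and the 95% intervals given with values cover counting error only.

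The A1 protein is encoded in the mouse by near-identical copies, and their counts depend on how alike the copies are. Bcl2a1a (ENSMUSG00000102037, chr9:88956900-88962419, plus strand), Bcl2a1b (ENSMUSG00000089929, chr9:89199209-89207827, plus strand) and Bcl2a1d (ENSMUSG00000099974, chr9:88723285-88731914, minus strand; build GRCm38) each have a coding sequence of 516 bases. Of these, Bcl2a1a shares 505 with Bcl2a1b and 509 with Bcl2a1d, and Bcl2a1b shares 510 with Bcl2a1d. Only 12 positions differ among the 3 copies, and 6 of them lie in the first 90 coding bases. Differences further along and the untranslated bases are not shown, and where the reads fell is not given. The first 90 bases follow from the A of the start codon. The 6 positions are in capitals, because a read that covers them can tell copies apart there.
Bcl2a1a: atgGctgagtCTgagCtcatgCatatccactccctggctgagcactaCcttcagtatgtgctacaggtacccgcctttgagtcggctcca
Bcl2a1b: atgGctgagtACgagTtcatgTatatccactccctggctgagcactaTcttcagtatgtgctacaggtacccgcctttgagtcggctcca
Bcl2a1d: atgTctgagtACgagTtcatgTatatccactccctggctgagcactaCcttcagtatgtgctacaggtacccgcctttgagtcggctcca

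Stretches of 90 bases were held letter for letter by another copy in 47.0% of 730 windows of the Bcl2a1a transcript, 36.1% of 728 windows of Bcl2a1b and 61.6% of 774 windows of Bcl2a1d. The counts of single copies are therefore uncertain, and the sum of the 3 copies (A1 sum) is given beside them. Of the other members' genes, those placed here are Bcl2 (chr1:106538178-106714274, minus strand), Bcl2l1 (chr2:152780668-152831728, minus strand), Mcl1 (chr3:95658788-95663176, plus strand), Bax (chr7:45461697-45466898, minus strand), Bcl2l11 (chr2:128126038-128162547, plus strand) and Bbc3 (chr7:16308393-16318205, plus strand). Genes that overlap Bcl2, Bcl2a1b, Bcl2a1d and Bax gave 19, 6, 14 and 0 UMIs over the 4 libraries, against 4547, 3457, 1829 and 9160 of the member.

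The windows around the start sites of the A1 genes are shown because 2 of the 3 hold the letters GCGTG, the core of the element that the AhR binds. RefSeq windows of 300 bases (250 before the start and 50 after it, GRCm38.p6, 5′ to 3′ along the gene) were searched for GCGTG on both strands, CACGC on the printed one, and any match is in capitals.
Bcl2a1a, chr9:88956670-88956969, plus strand: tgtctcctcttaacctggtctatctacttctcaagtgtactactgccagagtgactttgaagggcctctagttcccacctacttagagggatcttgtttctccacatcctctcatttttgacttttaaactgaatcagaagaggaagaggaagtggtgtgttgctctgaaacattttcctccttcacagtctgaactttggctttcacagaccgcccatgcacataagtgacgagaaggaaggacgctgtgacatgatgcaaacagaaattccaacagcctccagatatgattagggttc
Bcl2a1b, chr9:89199023-89199322, plus strand: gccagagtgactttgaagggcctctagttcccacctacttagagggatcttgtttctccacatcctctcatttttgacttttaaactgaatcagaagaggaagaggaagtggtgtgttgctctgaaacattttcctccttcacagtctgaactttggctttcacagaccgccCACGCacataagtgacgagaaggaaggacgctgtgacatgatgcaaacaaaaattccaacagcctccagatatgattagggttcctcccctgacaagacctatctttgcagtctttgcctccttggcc
Bcl2a1d, chr9:88731801-88732100, minus strand: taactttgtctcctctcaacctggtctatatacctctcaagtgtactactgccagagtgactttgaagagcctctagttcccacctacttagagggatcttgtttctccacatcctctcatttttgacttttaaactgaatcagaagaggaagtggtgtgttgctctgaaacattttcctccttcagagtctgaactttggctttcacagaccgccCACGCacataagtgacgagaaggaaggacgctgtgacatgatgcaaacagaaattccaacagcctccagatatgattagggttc

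Bcl2a1b and Bcl2a1d each had 1 match and Bcl2a1a had none. Over 256 aligned bases, the Bcl2a1a window matched the Bcl2a1b window in 254, and the differences were C175T, inside the match, and A222G, counted from 1 at the first base of the Bcl2a1b window with its base first. The letters are common: 10639 of 32851 windows of all genes (32.4%) held them. Of 14 windows for 9 members with an entry, 8 did, among them all 3 windows of Bbc3 and none of Bcl2, Mcl1 and Bax. These windows are not independent, because some of Bbc3 overlap and those of the A1 copies hold much the same sequence. The 8 of 14 can therefore not be read against the share of all windows. A match describes letters and is not a binding site.

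Bcl2, the survival gene of resting lymphocytes, was highest in NK cells and T cells and very low in myeloid cells. NK cells had 352, 223, 237 and 277 CPM, and T cells had 267, 86.3, 82.0 and 102 CPM. B cells had 70.8, 49.6, 52.4 and 57.6 CPM. The level in NK cells lay above that in T cells in the 3 ConA libraries without overlap of the intervals, whereas in Naïve the intervals overlapped, with 352 CPM (279 to 438) in NK cells and 267 CPM (243 to 292) in T cells. B cells lay below T cells and above phagocytes in all 4 libraries without overlap. Phagocytes had 23.5, 14.0, 18.5 and 13.9 CPM. Neutrophils gave 0, 3, 0 and 4 UMIs of Bcl2, so the gene was not detectable at this depth in 2 of the libraries, where a count of 0 allows up to 60.1 CPM in Naïve and 36.2 CPM in ConA+TCDD (3 counts of the class total).

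Mcl1, whose short-lived protein keeps neutrophils and many other cells alive, had its highest level in neutrophils in every library. Neutrophils had 1223, 898, 965 and 1024 CPM and phagocytes had 509, 433, 397 and 487 CPM. Both classes stood above all lymphocytes without overlap of the intervals. B cells had 195, 174, 176 and 178 CPM, T cells had 167, 100.4, 98.1 and 103 CPM and NK cells had 171, 109, 124 and 153 CPM. B cells stood above T cells without overlap in the 3 ConA libraries but not in Naïve. Erythroid cells, of which only ConA+Veh and ConA+TCDD held at least 20, had 15.8 and 36.7 CPM. After each cell of at least 1000 UMIs had been thinned to 1000, a Mcl1 UMI was found in 70%, 61.2%, 51.6% and 67.1% of neutrophils and in 0% and 1.92% of erythroid cells of ConA+Veh and ConA+TCDD. In unthinned cells they were 87.5%, 82.1%, 84.2% and 81.8% and 1.96% and 5.80%. In B cells the thinned share was 15.5%, 16.7%, 18.7% and 19.4% and the share without thinning 33.2%, 56.7%, 54.3% and 56.5%, so the lower unthinned share of Naïve went with its lower depth.

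Bcl2l1, which encodes the long-lived survival protein BCL-XL, was highest outside the lymphocytes and near the limit of detection in B cells. Erythroid cells of ConA+Veh and ConA+TCDD had 379 and 339 CPM, and endothelial cells of Naïve, ConA+Veh and ConA+FICZ had 111, 196 and 184 CPM. Neutrophils had 241, 149.7, 72.4 and 259.8 CPM, the lowest of which rests on 6 UMIs in 38 cells. Phagocytes had 36.5, 50.2, 24.6 and 71.5 CPM, T cells had 27.9, 19.2, 33.5 and 25.5 CPM and NK cells had 48.4, 14.1, 14.4 and 33.9 CPM. Phagocytes lay below NK cells in Naïve and below T cells in ConA+TCDD, with overlapping intervals. B cells had 3.36, 3.57, 4.68 and 2.95 CPM, below T cells without overlap in all 4 libraries.

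The A1 copies, which encode a survival protein of leukocytes, were spread over all 5 main classes. The A1 sum was 169, 118, 151 and 68.3 CPM in B cells and 145, 89.2, 117 and 66.4 CPM in T cells. In NK cells it was 141, 47.5, 126 and 33.9 CPM. Lymphocytes of all 3 classes had their highest A1 sum in Naïve and their lowest in ConA+FICZ. In phagocytes the sum was 96.5, 178, 308 and 103 CPM, and in neutrophils it was 120.3, 133, 193 and 104 CPM. The value of 308 CPM in ConA+TCDD phagocytes rests largely on 1 cell, described with the comparisons. Erythroid cells served as the class that should lack A1. There the A1 sum was 1 UMI in 51 erythroid cells of ConA+Veh and 0 in 69 of ConA+TCDD. After thinning, 11.1%, 8.34%, 10% and 7.31% of T cells held an A1 UMI, against 0 of 33 and 0 of 52 erythroid cells of ConA+Veh and ConA+TCDD. With 3 cells taken as the limit for a count of 0, this allows shares of up to 9.09% and 5.77%. That limit is lower than the upper end of an exact interval. The T cell share of ConA+TCDD, with an interval of 7.68 to 12.7%, lay above its erythroid limit, whereas that of ConA+Veh did not. The unthinned shares were 25.7%, 38.6%, 42.7% and 39.1% in T cells and 1.96% and 0% in erythroid cells, at median depths of 2888, 8453, 7079.5 and 9262 UMIs per T cell and 1188 and 1372 UMIs per erythroid cell.

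The copies differed in where they were counted. Bcl2a1a gave 1 of 453, 1 of 561, 0 of 323 and 0 of 301 A1 UMIs in B cells and 0 of 249, 2 of 767, 0 of 727 and 1 of 451 in T cells. Its counts among NK cells were 0 of 32 in Naïve, 0 of 37 in ConA+Veh and 0 of 70 in ConA+TCDD. Among lymphocytes the copy was thus at or near 0 in every library. In phagocytes it held 13.5%, 12.1%, 4% and 14.2% of the A1 UMIs, and in neutrophils of ConA+Veh and ConA+FICZ, the 2 libraries with enough A1 UMIs, it held 33.3% and 30.4%. The exact binomial intervals of the neutrophil shares, 18.0 to 51.8% and 19.9 to 42.7%, lay above every interval of B and T cells. Bcl2a1d held 27.2%, 35.7%, 38.7% and 39.5% in B cells, lowest in Naïve and without overlap between the intervals of Naïve and of each ConA library. In T cells its share was 36.5%, 37.5%, 38.4% and 33.3%, with overlap throughout. Since windows unique to a copy differ in length, the shares are compared between classes and libraries and not between copies.

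**Figure D1:**
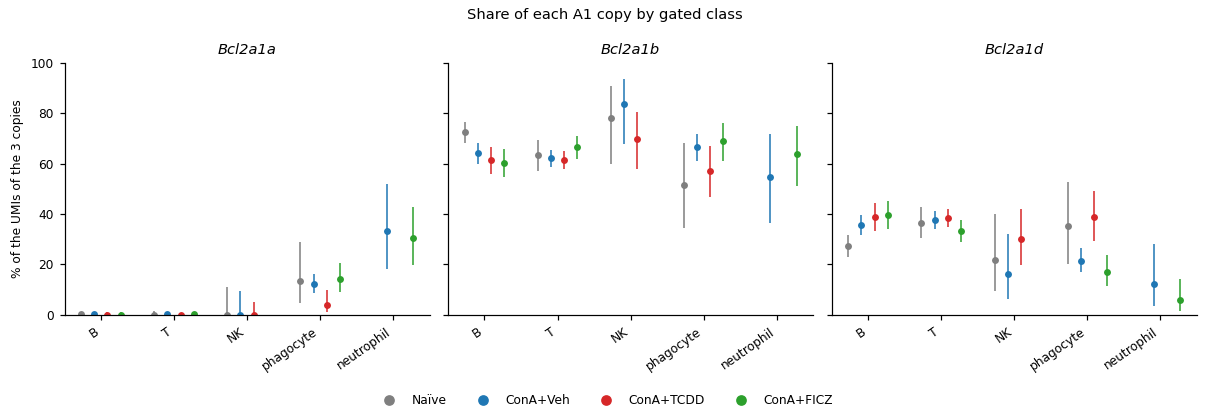
Share of the UMIs of the 3 A1 copies (%, vertical axis) that each copy took, by class and library, with exact binomial 95% intervals. Bcl2a1a sits at 0 to 0.261% in B, T and NK cells and at 30.4% and 33.3% in neutrophils of ConA+FICZ and ConA+Veh; classes with few A1 UMIs are left out.

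Bax, the pore former, was found in every class with at least 20 cells except for Naïve neutrophils. Endothelial cells of Naïve, ConA+Veh and ConA+FICZ had 393, 462 and 592 CPM, and phagocytes had 263, 240.3, 213 and 274 CPM. T cells had 175, 150.2, 168 and 225 CPM, B cells had 154, 119, 168 and 169.6 CPM and NK cells had 123, 117, 131 and 147 CPM. Neutrophils had 0, 28.3, 72.4 and 31.7 CPM, from 0, 7, 6 and 21 UMIs, which was below the other 4 main classes without overlap in 3 of the 4 libraries. The exception was ConA+TCDD, whose 6 UMIs left an interval of 26.6 to 158 CPM.

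Of the sensors, Bcl2l11 (BIM), which ends the life of lymphocytes after a response, was highest in NK cells, with intervals that overlapped those of neutrophils in Naïve and ConA+TCDD. NK cells had 106, 127, 153 and 105 CPM and T cells had 43.0, 52.1, 61.0 and 36.2 CPM, without overlap of the intervals in any library. B cells had 19.8, 29.0, 49.1 and 26.5 CPM, phagocytes had 28.7, 49.6, 43.1 and 31.8 CPM and neutrophils had 100.2, 56.6, 72.4 and 57.4 CPM. Bbc3 (PUMA), a target of p53, was low: T cells had 9.87, 5.46, 7.86 and 7.66 CPM, B cells had 4.10, 7.57, 6.55 and 6.80 CPM, and the larger values of 35.2, 20.5, 26.9 and 22.6 CPM in NK cells rest on 8, 16, 15 and 12 UMIs. Phagocytes had 49.6, 12.8, 15.4 and 10.6 CPM, with Naïve above the other libraries. Pmaip1 (NOXA), which binds MCL1 and A1, was 33.2, 13.2, 22.9 and 16.3 CPM in B cells and 6.39, 4.07, 3.05 and 4.27 CPM in T cells, without overlap between the classes in any library. It was 49.6, 51.3, 40.1 and 34.4 CPM in phagocytes and 80.2, 52.6, 84.5 and 57.4 CPM in neutrophils.

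**Figure D2:**
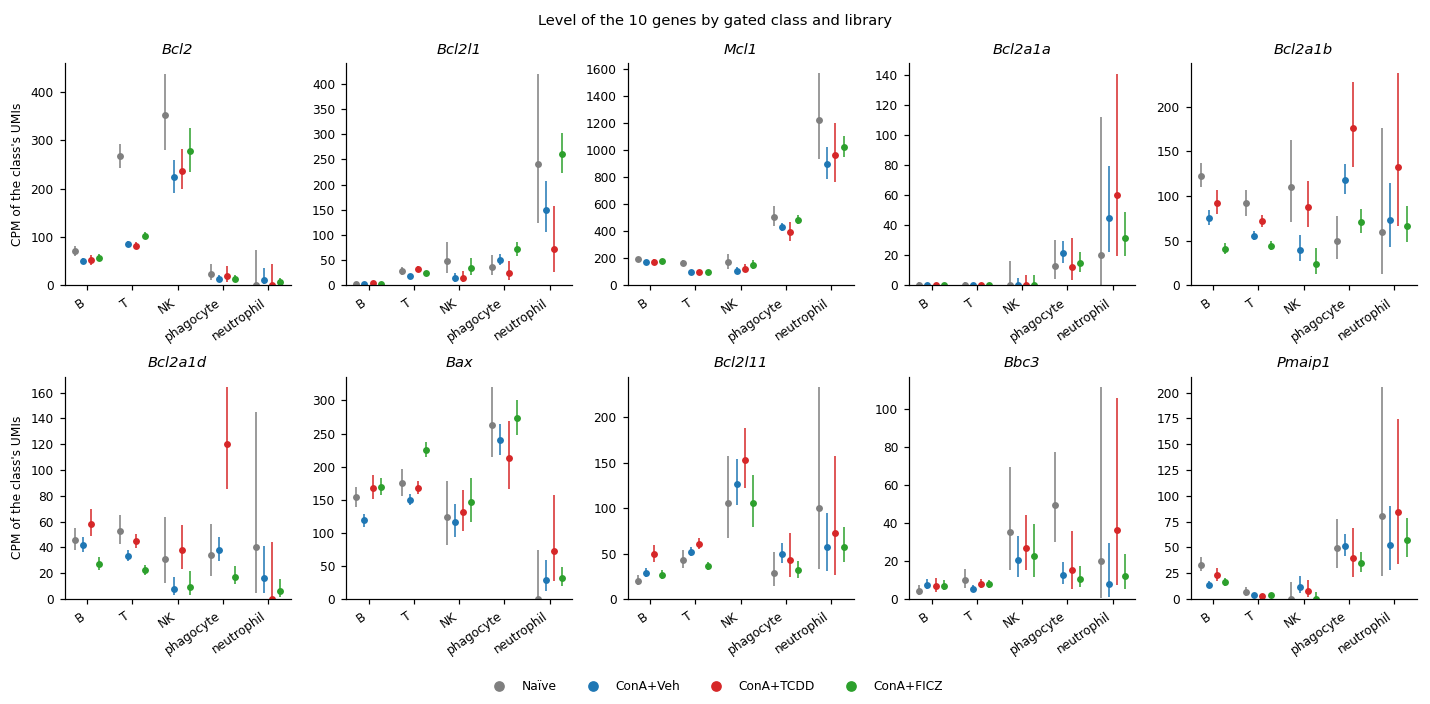
Level (CPM, vertical axis, one panel per gene with its own scale) of the 10 genes in B, T, NK, phagocyte and neutrophil cells of the 4 libraries, with exact Poisson 95% intervals. Bcl2 stands highest in NK and T cells, where T cells go from 267 CPM in Naïve to 86.3 CPM in ConA+Veh, and Mcl1 stands highest in neutrophils at 898 to 1223 CPM.

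The first comparison set ConA+Veh against Naïve and asked what ConA hepatitis did to the family at 24 hours. A gene was measured where both libraries together held at least 30 UMIs of it in the class, and past 2-fold was the size used to name a difference. After a gene's name, a value with a range in brackets is the log2 ratio of CPM with its 95% interval. In T cells the largest difference was that of Bcl2, with 267 and 86.3 CPM in Naïve and ConA+Veh and a log2 ratio of -1.63 (95% interval -1.80 to -1.46). It was 1 of 9 measured members past 2-fold, against 22.7% of 9426 genes. In a joint Leiden clustering of all libraries, the T cells of these 2 lay in different clusters. Clusters 9 and 17 held 227 and 127 of the 439 in Naïve but 4 and 2 of the 743 in ConA+Veh, most of which lay in clusters 3, 4, 6 and 10. In B cells Pmaip1 went from 33.2 CPM to 13.2 CPM, a log2 ratio of -1.33 (95% interval -1.81 to -0.84), the only one of 8 measured members past 2-fold, against 25.8% of 8866 genes. It fell short of 2-fold in cells thinned and gated anew, at -0.18, with equal weight for each cell, at -0.77, and in classes from clusters, at -0.92. The B cells too lay in different clusters, 995 of 1085 in Naïve and 2 of 819 in ConA+Veh in cluster 1, and 68 and 616 in cluster 0. In NK cells, most of which lay in cluster 2 in both libraries, 1 of 5 was past 2-fold, against 19.7% of 4184 genes: Bcl2a1b, with 109.9 and 39.8 CPM and a log2 ratio of -1.47 (95% interval -2.27 to -0.65), or -0.91 with equal weight for each cell. With 9, 8 and 5 members measured in T, B and NK cells, these counts are too small to set the members apart from all genes. The median log2 ratio of the measured members was -0.66 against -0.12 for all measured genes in T cells, -0.27 against -0.28 in B cells and -0.65 against -0.08 in NK cells. The A1 copies count as separate members in this and later medians, though their single counts are uncertain.

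Other survival genes were also lower in T cells of ConA+Veh, short of 2-fold. Mcl1 had a log2 ratio of -0.74 (95% interval -0.93 to -0.54) and the A1 sum one of -0.70 (95% interval -0.91 to -0.49), and both intervals lay below 0. In thinned and newly gated T cells the A1 sum was -0.01 and Bcl2a1b, at -0.73 in all T cells, turned to 0.25. Bax, at -0.22 (-0.41 to -0.04), moved less, and the interval of Bcl2l11, at 0.28 (-0.08 to 0.65), spanned 0. In B cells the A1 sum was -0.52 (-0.70 to -0.34) and Bcl2 was -0.51 (-0.80 to -0.23), beside a median of -0.28 over all measured genes, while Bcl2l11 lay on the other side at 0.55 (0.09 to 1.04). NK cells had a log2 ratio of -0.66 (-1.05 to -0.26) for Bcl2 and of -1.57 (-2.29 to -0.84) for the A1 sum, the latter from 32 and 37 UMIs. The Bcl2 ratio in NK cells was -0.14 with equal weight for each cell, outside that interval, and -0.998 with a lead of 3 markers. In Naïve, 3 NK cells held 19 of the 80 Bcl2 UMIs.

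Phagocytes went the other way for A1. Bcl2a1b was 49.6 and 118 CPM in Naïve and ConA+Veh, a log2 ratio of 1.26 (95% interval 0.58 to 2.02), and the A1 sum had 0.88 (0.39 to 1.42). A looser gate, with a lead of 1 marker, brought Bcl2a1b to 0.92. Bbc3 was 49.6 and 12.8 CPM, a log2 ratio of -1.95 (95% interval -2.90 to -0.98) from 19 and 22 UMIs. These were 2 of 10 measured members past 2-fold, against 13.5% of 6259 genes, a share close to the background, with a median log2 ratio of 0.11 against -0.09 for all measured genes. The phagocytes of Naïve lay mostly in cluster 22, with 49 of 69 there and 17 in cluster 5, and those of ConA+Veh mostly in cluster 5, with 165 of 193 there and 3 in cluster 22. Their markers were not alike either: the own list summed to 12023, 4928, 3133 and 4919 CPM, and the part of cluster and markers in the values of Bcl2a1b and Bbc3 was not tested. The neutrophil list summed to 175, 378, 73.9 and 193 CPM in phagocytes and to 120617, 170095, 148423 and 145027 CPM in neutrophils. In phagocytes the granulocyte progenitor list summed to 216, 293, 496 and 209 CPM and the conventional dendritic list to 331, 220, 200 and 320 CPM. The hepatocyte list had 115, 253, 382 and 177 CPM there, with only 1 of its 6 genes detected in ConA+Veh and in ConA+TCDD. In neutrophils only Mcl1, at -0.45 (-0.86 to -0.01), and Bcl2l1, at -0.68 (-1.66 to 0.39), were measured, and 0 of 2 were past 2-fold, against 22.5% of 1117 genes. The Naïve library held 24 neutrophils.

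**Figure D3:**
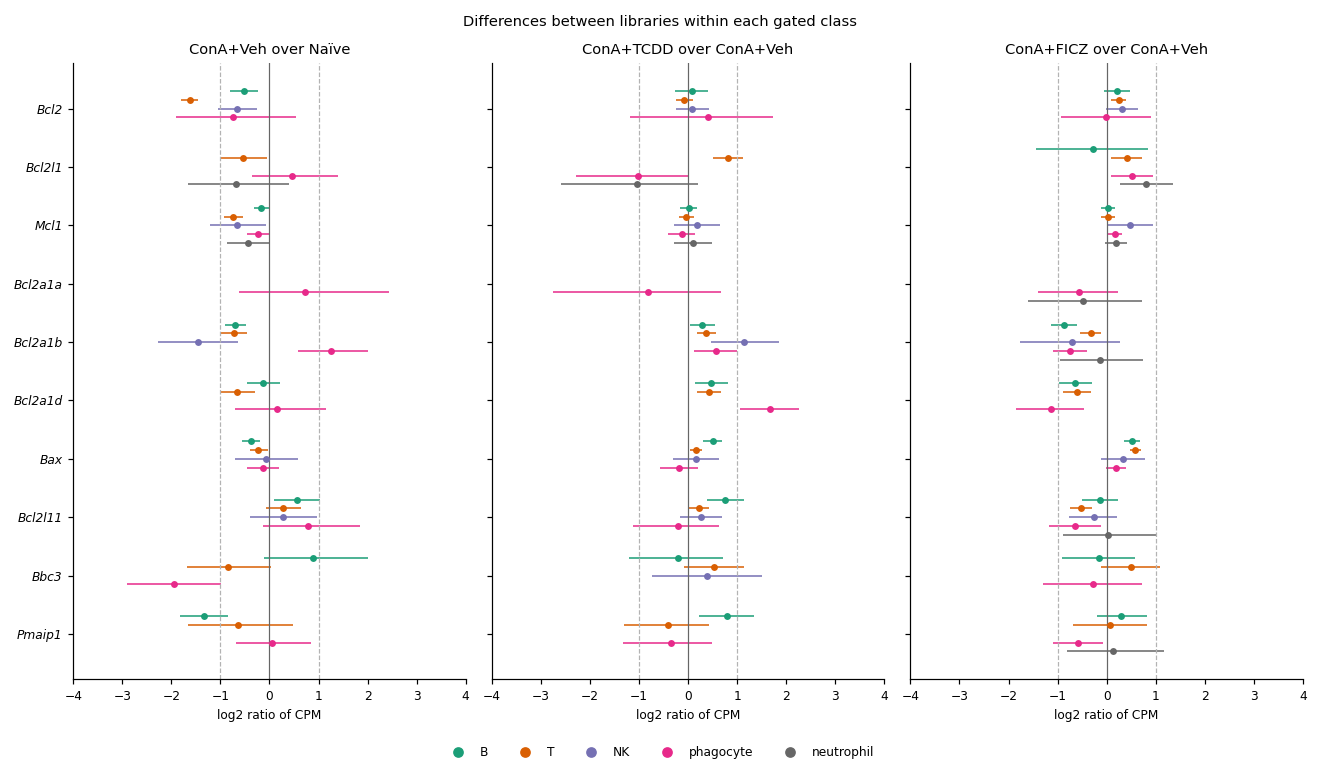
Log2 ratio of CPM (horizontal axes, dashed lines at 2-fold) of each measured gene for ConA+Veh against Naïve and for each ligand against ConA+Veh, coloured by class, with exact binomial 95% intervals drawn as far as 4 on either side. Bcl2 in T cells stands at -1.63 in the first comparison, and Bcl2a1d in phagocytes stands at 1.66 in the second, which falls to 0.34 without 1 cell, and at -1.14 in the third.

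The second comparison set ConA+TCDD against ConA+Veh, and the third set ConA+FICZ against ConA+Veh, so both share the ConA+Veh library and are not independent of each other. Fewer genes were past 2-fold in T cells and B cells than between ConA+Veh and Naïve. In T cells 0 of 9 measured members were past 2-fold with TCDD, against 2.23% of 9744 genes, and 0 of 9 with FICZ, against 2.67% of 9811 genes. In B cells they were 0 of 8, against 3.46% of 8428 genes, and 0 of 9, against 3.24% of 8973 genes. Few genes of any kind passed this size in these classes.

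The A1 sum lay on opposite sides of ConA+Veh with the 2 ligands in lymphocytes. In B cells, with 118, 151 and 68.3 CPM in the 3 ConA libraries, the log2 ratio was 0.36 (95% interval 0.16 to 0.56) for TCDD and -0.79 (95% interval -0.996 to -0.58) for FICZ. In T cells, with 89.2, 117 and 66.4 CPM, it was 0.39 (95% interval 0.24 to 0.54) and -0.42 (95% interval -0.60 to -0.25). None of these 4 intervals held 0, but when cells were thinned to 1000 UMIs and gated anew, which left 395 and 241 T cells in ConA+Veh and ConA+TCDD, the T cell value of the A1 sum with TCDD turned to -0.35. In the subsets described below, the 3 ConA libraries had 136, 152 and 94.0 CPM in non-cycling and 76.4, 94.3 and 52.4 CPM in cycling T cells. B cells without activation genes had 103, 119 and 55.3 CPM, and activated ones had 185, 174 and 140 CPM. The part of the mix of subsets in the ratios was not tested. In NK cells, with 47.5, 126 and 33.9 CPM from 37, 70 and 18 UMIs, the log2 ratio of the A1 sum was 1.40 (95% interval 0.81 to 2.02) for TCDD and -0.49 (95% interval -1.39 to 0.36) for FICZ, the second of which spanned 0. Bcl2a1b was the 1 of 6 measured members past 2-fold in NK cells with TCDD, at 1.15, against 3.38% of 4767 genes, and with FICZ 0 of 5 were, against 4.52% of 4755 genes. The NK difference was less clear per cell: after thinning, 6% (3.14 to 10.2%) of the NK cells of ConA+Veh and 6.85% (3.33 to 12.2%) of those of ConA+TCDD held an A1 UMI, with overlapping intervals, whereas without thinning the shares were 12.2% and 23.2%. With equal weight for each cell the log2 ratio of Bcl2a1b was 0.90, and it was 0.83 in thinned and newly gated cells, both short of 2-fold.

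In phagocytes the A1 difference with TCDD rested on 1 cell. ConA+TCDD held 31 phagocytes against 193 in ConA+Veh. Bcl2a1d was 37.9 and 120.2 CPM in ConA+Veh and ConA+TCDD, a log2 ratio of 1.66 (95% interval 1.05 to 2.26), but 26 of its 39 UMIs in ConA+TCDD lay in a single cell, as did 30 of 57 UMIs of Bcl2a1b and 57 of 100 of the A1 sum. Leaving out the cell with most UMIs of the gene in each library brought the log2 ratio to 0.34 for Bcl2a1d, -0.29 for Bcl2a1b and -0.17 for the A1 sum, from 0.57 for Bcl2a1b and 0.79 for the A1 sum with all cells. Without it none of the 3 was past 2-fold. That cell had 33329 UMIs in all, 5 of the 6 phagocyte markers and 1 of the 6 markers of conventional dendritic cells, and the phagocyte next to it held 10 A1 UMIs. Bcl2a1d and Bcl2l1, at -1.02 (-2.28 to 0.02) from 8 UMIs in ConA+TCDD, were the 2 of 9 measured members past 2-fold, against 9.65% of 6071 genes. Bcl2l1 stayed past 2-fold in 2 of 6 other settings and was -0.31 with equal weight for each cell.

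With FICZ the phagocytes had less A1 than with vehicle. The log2 ratio of the A1 sum was -0.79 (95% interval -1.08 to -0.51), and -0.80 without the cell with most A1 UMIs in each library. Bcl2a1d, with 37.9 and 17.2 CPM and a log2 ratio of -1.14 (95% interval -1.85 to -0.46), was the 1 of 10 measured members past 2-fold, against 4.5% of 7362 genes. With the stricter and the looser gate it was -0.87 and -0.91, short of 2-fold, and in thinned cells -2.05. Bcl2l11 and Pmaip1 lay below ConA+Veh at -0.64 (-1.18 to -0.11), which turned to 0.21 after thinning, and -0.58 (-1.10 to -0.06), and Bcl2l1 lay above it at 0.51 (0.09 to 0.94). In neutrophils 1 of 2 measured members was past 2-fold with TCDD, against 6.85% of 1197 genes: Bcl2l1, at -1.05 (-2.58 to 0.21), whose interval spanned 0. With FICZ 0 of 6 were, against 12.2% of 2631 genes, and Bcl2l1 stood at 0.80 (0.28 to 1.35). The A1 sum in neutrophils had intervals that spanned 0 with both ligands, at 0.53 (-0.43 to 1.43) with TCDD and -0.36 (-0.98 to 0.29) with FICZ.

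Over all B, T or NK cells, Bax and the sensors, where measured, were short of 2-fold with either ligand. The sensors had exceptions under other settings, those of Bcl2l11 given below. Thinned and gated anew, Bbc3 was 1.35 in T cells with FICZ and 1.20 in NK cells with TCDD. In the same setting Pmaip1 in T cells with TCDD turned from -0.42 to 1.30. That setting left 395, 241 and 258 T cells of 1000 UMIs each in ConA+Veh, ConA+TCDD and ConA+FICZ. Genes this low have very few UMIs there, whose number is not given, so these thinned values are not read as differences. Bax was higher with FICZ in T cells, 0.58 (0.48 to 0.69), and in B cells, 0.52 (0.36 to 0.68), and with TCDD it was 0.51 (0.31 to 0.70) in B cells and 0.16 (0.05 to 0.28) in T cells. Bcl2l11 in B cells had 29.0, 49.1 and 26.5 CPM in the 3 ConA libraries, a log2 ratio of 0.76 (0.38 to 1.14) with TCDD and -0.13 (-0.50 to 0.24) with FICZ. The TCDD ratio of Bcl2l11 in B cells passed 2-fold in thinned cells, with the looser gate and in classes from clusters, at 1.05, 1.01 and 1.08. In T cells Bcl2l11 was 0.23 (0.03 to 0.43) with TCDD and -0.52 (-0.75 to -0.30) with FICZ, the latter -1.29 in thinned cells and -0.20 without low-quality cells. Pmaip1 in B cells stood at 0.79 (0.22 to 1.35) with TCDD. In B cells with none of the activation genes described below, Pmaip1 was 13.1 and 14.0 CPM in ConA+Veh and ConA+TCDD, from 35 and 14 UMIs. Bcl2l11 was 25.1 and 36.9 CPM in the same cells. Cluster 8 held 41 of the 819 B cells of ConA+Veh and 104 of the 398 of ConA+TCDD. The part of this make-up in the B cell values was not tested. Bcl2 and Mcl1 moved little with either ligand in T cells, where Bcl2 had -0.07 (-0.24 to 0.09) with TCDD and 0.25 (0.10 to 0.40) with FICZ, and Mcl1 had -0.03 (-0.19 to 0.12) and 0.03 (-0.11 to 0.18). Over all measured members the median log2 ratio with TCDD was 0.38 against 0.03 for all measured genes in B cells, 0.23 against -0.05 in T cells, 0.22 against -0.05 in NK cells, -0.18 against -0.02 in phagocytes and -0.47 against 0.05 in neutrophils. With FICZ it was -0.13 against 0.04, 0.07 against 0.00, 0.31 against -0.02, -0.42 against 0.11 and 0.07 against 0.19 in the same order. Only 2 members were measured in neutrophils with TCDD, and the near-identical A1 copies count separately. These medians are therefore not read as a shift of the family.

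T cells were split further because the share of dividing cells differed greatly between the libraries. Cycling T cells, with at least 2 of 6 cell cycle genes detected where non-cycling ones had none, were 15 of 439 T cells in Naïve and 442, 228 and 207 of 743, 592 and 529 in the ConA libraries. As a share of UMIs, Bcl2 was lower in cycling than in non-cycling T cells of the same library, with log2 ratios of -0.97, -0.58 and -1.002 in ConA+Veh, ConA+TCDD and ConA+FICZ, and the A1 sum was lower, with -0.83, -0.69 and -0.84. Cycling cells were deeper, with medians of 13039.5, 15450.5 and 20532 UMIs against 4667.5, 5285 and 5750. After thinning, a Bcl2 UMI was found in 9.77%, 10.5% and 8.70% of cycling and 12.98%, 8.63% and 15.8% of non-cycling T cells, so the share went the other way in ConA+TCDD, and the intervals overlapped in each library. The unthinned shares were 57.0%, 61.0% and 63.3% and 50.5%, 39.1% and 56.2%. Mcl1 had -0.42, -0.41 and -0.53 and Bbc3 had -1.74, -1.41 and -1.35. Bax had smaller differences, with -0.21, -0.16 and -0.48.

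Within non-cycling T cells the lower Bcl2 of ConA+Veh held while the A1 difference did not. Bcl2 was 311 and 144 CPM in Naïve and ConA+Veh, a log2 ratio of -1.11 (95% interval -1.36 to -0.85). The A1 sum was 139 and 136 CPM, a log2 ratio of -0.03 (95% interval -0.33 to 0.28). These are again cells of different clusters, since clusters 9 and 17 held 219 and 123 of the 402 in Naïve but 4 and 2 of the 214 in ConA+Veh, and the part of this in the Bcl2 difference was not tested. CD8 and CD4 T cells were taken from all T cells, cycling ones included. CD8 cells had a UMI of Cd8a or Cd8b1 and none of Cd4, and CD4 cells had a UMI of Cd4 and none of Cd8a or Cd8b1. For ConA+Veh over Naïve, Bcl2 was lower in CD8 T cells, -1.67 (-1.92 to -1.41), and in CD4 T cells, -1.56 (-2.04 to -1.07). The share of all T cells with a Bcl2 UMI was 26.1%, 10.8%, 8.97% and 12.7% after thinning, and 51.5%, 52.5%, 46.5% and 59.2% without it, and the erythroid shares after thinning were 0% and 1.92% in ConA+Veh and ConA+TCDD.

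Bcl2l1 differed in non-cycling T cells with the ligands. In the 3 ConA libraries cluster 3 held 57, 154 and 90 of their 214, 289 and 256 cells. Bcl2l1 had 24.6, 15.3, 45.1 and 30.6 CPM from 32, 20, 80 and 60 UMIs, a log2 ratio of 1.56 (95% interval 0.84 to 2.35) for TCDD and of 1.003 (95% interval 0.25 to 1.81) for FICZ, both over ConA+Veh. The UMIs of ConA+TCDD were spread over 51 of 289 non-cycling cells, with 5 in the cell that held most. After thinning, a Bcl2l1 UMI was found in 3.12%, 2.40%, 3.60% and 4.05% of non-cycling T cells, with intervals that overlap, and in 6.72%, 8.41%, 17.6% and 17.6% without thinning. Over all T cells the ratio was 0.81, with 1.19 for equal weight per cell and 1.71 in thinned and newly gated cells. In cycling T cells the TCDD ratio was 0.29 (95% interval -0.11 to 0.69), and the 2 groups of T cells were not tested against each other. Non-cycling T cells of ConA+TCDD also had more Bcl2l11, 0.62 (0.19 to 1.06), and less Bcl2, -0.43 (-0.73 to -0.13). No share of all genes past 2-fold is given for any subset of T cells. The ratios between libraries in subsets therefore have no background to be read against.

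CD8 and CD4 T cells of the same library differed in A1. The A1 sum was 177, 111, 175 and 87.3 CPM in CD4 T cells and 66.1, 55.2, 66.3 and 39.2 CPM in CD8 T cells, log2 ratios of CD8 over CD4 of -1.42, -1.01, -1.40 and -1.15, and every interval lay below 0. After thinning, an A1 UMI was found in 3.92%, 5.25%, 6.75% and 3.70% of CD8 and 13.9%, 6.67%, 12.2% and 8.75% of CD4 T cells, in the same direction with overlapping intervals, and unthinned in 14.3%, 34.6%, 36.9% and 34.4% and 32%, 47.2%, 61.4% and 48.8%. Bcl2 had ratios of 0.53, 0.42, 0.32 and 0.02, whose intervals spanned 0 in ConA+TCDD and ConA+FICZ. In CD4 T cells FICZ went with fewer UMIs of Bcl2l11 and of Bcl2a1d than vehicle, with 24 against 68 UMIs for both genes and a log2 ratio of -1.14 (95% interval -1.87 to -0.45) for both. Neither the number of members measured nor the share of all genes past 2-fold is given for CD4 T cells. These 2 genes can therefore not be set apart from genes at large.

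**Figure D4:**
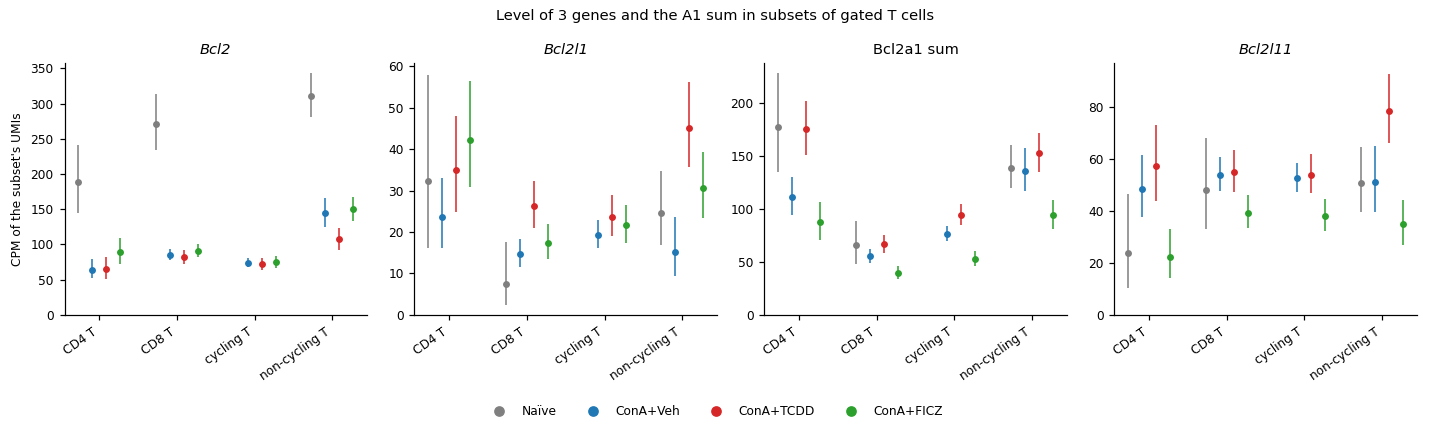
Level (CPM) of Bcl2, Bcl2l1, the A1 sum and Bcl2l11 in CD8, CD4, cycling and non-cycling T cells by library, with exact Poisson 95% intervals; subsets overlap in their cells. Bcl2 in non-cycling T cells goes from 311 CPM in Naïve to 144 CPM in ConA+Veh, and Bcl2l1 in them stands at 45.1 CPM in ConA+TCDD against 15.3 CPM in ConA+Veh.

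B cells with at least 2 of the activation genes Mreg, Cd86 and Cd200 (24, 34, 52 and 27 cells) were set against B cells with none of them. The A1 sum had log2 ratios of 0.70, 0.85, 0.55 and 1.34 and Bcl2a1d had 1.69, 1.44, 0.77 and 1.87, with intervals above 0 in all 4 libraries. In Naïve 1 activated B cell held 27 of the 47 A1 UMIs and 16 of the 19 UMIs of Bcl2a1d. Without the cell with most UMIs of the gene in each set, the ratios of the A1 sum were -0.42, 0.69, 0.38 and 1.26 and those of Bcl2a1d -0.87, 1.32, 0.68 and 1.73, so the direction turned in Naïve, and the intervals stayed above 0 in ConA+Veh and ConA+FICZ. Mcl1 had 0.09, -0.70, -0.52 and -0.66, below 0 in the 3 ConA libraries with intervals that did not reach 0. Activated B cells were deeper, with a median of 2993.5, 11469.5, 4493.5 and 8166 UMIs against 2017, 3733, 3082 and 2913.5, and the part that depth has in choosing them was not tested.

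Of the mitochondrial death pathway, 31 other genes were followed. In B, T and NK cells more of them were past 2-fold between ConA+Veh and Naïve than with the ligands. Genes of all kinds did likewise, with 25.8%, 22.7% and 19.7% past 2-fold in these classes for ConA+Veh over Naïve. With TCDD the shares were 3.46%, 2.23% and 3.38%, and with FICZ 3.24%, 2.67% and 4.52%. In phagocytes 1 pathway gene was above and 1 below for ConA+Veh over Naïve, and 2 were above with TCDD. In T cells 23 of the 31 were measured for ConA+Veh over Naïve. Among those above 2-fold were Aifm1, a mitochondrial flavoprotein, at 1.35 (0.76 to 2.002), and Cdkn1a, the p21 cell cycle inhibitor, at 1.36 (0.62 to 2.19). Birc2, which encodes the cIAP1 protein, at -1.34 (-1.69 to -0.98), and the sensor gene Bik, at -1.17 (-2.13 to -0.15), were below it. B cells had 24 measured, with Cdkn1a and the cytochrome c gene Cycs among those above and the sensor gene Bmf, Birc2 and Birc3 below 2-fold, Birc3 at -1.48 (-1.70 to -1.26). NK cells had 11 measured, with Cycs and Cdkn1a among those above, the latter at 2.60 (1.44 to 4.08), and none below. Phagocytes had 22 measured, with Bnip3, a mitophagy receptor, above at 2.73 (1.66 to 4.06) and the caspase inhibitor gene Xiap below at -1.04 (-1.70 to -0.35). Neutrophils had 4 measured, with Birc3 and Cdkn1a below, against 22.5% of 1117 genes past 2-fold either way. Cdkn1a was at -1.43 (-2.18 to -0.65). Birc3 was at -1.01 (-2.07 to 0.15), from 27 UMIs in ConA+Veh and 11 in Naïve, with an interval that spanned 0.

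With TCDD none of the 23, 23 and 12 other pathway genes measured in B, T and NK cells was past 2-fold. In phagocytes 2 of 22 were above it, close to the 9.65% of 6071 genes past 2-fold either way. They were Apaf1, the scaffold of the apoptosome, at 1.05 (0.23 to 1.82), and Aifm1, at 1.22 (0.24 to 2.14). These rest on 20 and 15 UMIs in the 31 phagocytes of ConA+TCDD, and no value without the cell with most UMIs is given for them. In neutrophils Cycs was above, at 1.27 (0.37 to 2.15), as 1 of 5 measured, against 6.85% of 1197 genes. With FICZ none of 24, 23, 14 and 22 genes measured in B, T, NK cells and phagocytes was past 2-fold, and in neutrophils Xiap was above, at 1.32 (0.30 to 2.51). The share of all genes past 2-fold given above is the background for these counts too.

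The genes whose levels were most like a member's were sought over 20 pairs of class and library with at least 50 cells, by Pearson's r of log2(CPM + 10) among 5298 or 5297 genes other than the gate markers. For Bcl2 they were Rasal3 (r = 0.960), Stat4 (r = 0.957) and Ptpn22 (r = 0.955), where Stat4 transmits interleukin-12 signals and Ptpn22 is a phosphatase of lymphocytes. For Mcl1 they were Plekho2 (r = 0.957), Rnf19b (r = 0.956) and Ist1 (r = 0.955), all lowest in erythroid cells or hepatocytes and highest in neutrophils. For the A1 sum they were Sh3kbp1 (r = 0.903), Pde4b (r = 0.889) and Arhgap30 (r = 0.886), of which Pde4b breaks down cyclic AMP. The points share 4 libraries and their depth, so these values are a description.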

How the data were processed

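Liver mononuclear cells of 4 groups of mice, with 1 library each, were profiled cell by cell with the 10x Genomics 5′ assay, which captures cells in droplets. The authors used Cell Ranger 3.0.2 for alignment to mm10 and for counting, and they deposited raw counts for the barcodes that this program kept. No normalization was applied to the deposited counts. The smallest cells held 500 UMIs. Read length and doublet removal are not given in the sources used here.

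The members and all lists were chosen with earlier results of these data known. The named genes are the 10 members, the sum of the Bcl2a1 copies, 31 other genes of the pathway, 3 AhR targets and, for Bcl2, Mcl1 and the A1 sum, the 3 genes with the most similar levels. Results of 1 gene of the pathway list and of 1 T cell subset are not reported here. The cells with most UMIs of a gene were singled out after their values had been seen.

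Cells were put in classes by detected markers: 11 lists of 6, at least 2 detected and at least 2 more than in any other list. Between 256 and 585 cells per library took no class. No doublet caller was run. Cells with markers of several lists tend to fail the required lead, but doublets must be taken as still present. The level of a gene (CPM) is its UMI sum in a class as a share of that class's UMI total. Levels have exact Poisson intervals, shares have exact binomial (Clopper-Pearson) intervals, and ratios have intervals from the exact binomial distribution of the 2 sums. A sum of 0 was set to 3 counts. These intervals treat UMIs as independent, which UMIs of 1 cell are not. Classes under 20 cells gave no ratio. Recovery of known ratios was checked on simulated counts. These were drawn as independent UMIs, which the intervals also assume, so the check does not cover UMIs that gather in single cells.

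The alternatives were cells thinned to 1000 UMIs, equal weight per cell, leaving out cells with under 200 genes or over 10% mitochondrial UMIs, totals without ribosomal and mitochondrial genes, a lead of 3 or of 1 markers, and classes from Leiden clusters, which are named by number in the text. Gene positions are those of the GENCODE annotation of GRCm38, and promoter windows are those of RefSeq. Clusters were made with igraph 0.11.9, leidenalg 0.10.2 and scikit-learn 1.9.0. Intervals came from scipy 1.17.1, and Python 3.11.15, pandas 2.3.3, numpy 2.4.6 and matplotlib 3.10.9 did the rest.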

Additional observations from a re-analysis of the deposited data

Results flagged for a closer look

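Bcl2a1b differed in direction between classes under the same contrast. For ConA+Veh over Naïve its log2 ratio was 1.26 in phagocytes and -1.47 in NK cells, and this difference was not tested. The NK value rests on 25 and 31 UMIs and the phagocyte value on 19 and 203 UMIs.

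Bcl2a1c, a further A1 copy that is no member of the list, gave 27 UMIs over the 4 libraries, with 11, 7, 1 and 8 in Naïve, in ConA+Veh, in ConA+TCDD and in ConA+FICZ.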

How the results depend on the processing

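Of 953 ratios of members between libraries recomputed under 8 settings, 881 stayed within the 95% interval first given and 72 did not, 45 of them with thinning and 20 with equal weight per cell, and no ratio past 2-fold changed its sign. Bcl2 in T cells, ConA+Veh over Naïve, stayed past 2-fold in 8 of 8 settings, between -1.72 and -1.25, and Bbc3 in phagocytes in 8 of 8, between -2.43 and -1.81. Bcl2a1b in NK cells stayed past it in 7 of 8 (-1.73 to -0.91) and with TCDD in 6 of 8 (0.83 to 1.42), and Pmaip1 in B cells in 5 of 8 (-1.51 to -0.18).

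The number of members past 2-fold moved as follows, without the number measured or the share of all genes past 2-fold in each setting. The counts therefore have no background to be read against and are not a result about the members. Thinned and gated anew, it became 1 in B cells with TCDD and 1 with FICZ, 3 in T cells for ConA+Veh over Naïve, 2 with TCDD and 2 with FICZ, 2 in NK cells for ConA+Veh over Naïve and 1 with FICZ, 6 in phagocytes for ConA+Veh over Naïve and 4 with FICZ, and 1 in neutrophils with FICZ. With equal weight it became 1 in T cells with TCDD, 0, 0 and 1 in NK cells over the 3 comparisons and 5, 1 and 2 in phagocytes. For ConA+Veh over Naïve in B cells it became 2 without low-quality cells and 0 with cluster classes. For TCDD in phagocytes it became 1 without ribosomal and mitochondrial genes and 1 with cluster classes. With FICZ it became 0 in phagocytes with either other gate, and for ConA+Veh over Naïve there 1 with the looser gate. TCDD gave 1 in B cells and 0 in neutrophils both with the looser gate and with cluster classes, which gave 2 in T cells for ConA+Veh over Naïve. Without the cell with most UMIs it became 3 in phagocytes for ConA+Veh over Naïve, with Bcl2a1a at 1.16, and stayed 2 with TCDD, where Bcl2a1a at -1.48 took the place of Bcl2a1d. Both Bcl2a1a values rest on few UMIs. With all cells, phagocytes gave 5 in Naïve and 4 in ConA+TCDD, and in each library 2 of them lay in the cell left out. The causes were not tested.

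Values short of 2-fold whose interval did not hold 0 also turned, among them some given above. With thinning, Bcl2a1b in T cells went to -0.92 with TCDD and to 0.25 for ConA+Veh over Naïve. The A1 sum in T cells with TCDD went to -0.35 and Bcl2l11 in phagocytes with FICZ to 0.21. Bcl2a1d in B cells with TCDD went to -0.40 and Bax in T cells with TCDD to -0.14. With equal weight, Mcl1 in B cells went to 0.15 for ConA+Veh over Naïve. Of 91 ratios within a library, Bcl2a1d in activated B cells of Naïve reversed without such cells, to -0.87. Leaving out the cell with most UMIs of a gene was chosen after seeing the data. No paired analysis was possible because each condition has 1 library, which can also not be left out. Thinned or strictly gated classes under 20 cells gave no value.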

Other observations

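Cells that took no class, 256, 585, 564 and 413 in Naïve, in ConA+Veh, in ConA+TCDD and in ConA+FICZ, had an A1 sum of 182, 78.8, 132 and 44.3 CPM. Their Bcl2 level was 226, 72.3, 112 and 88.5 CPM and their Mcl1 level was 179, 184, 163 and 203 CPM. Bcl2l11 had 62.3, 46.8, 90.9 and 48.0 CPM in them. Plasmacytoid dendritic cells, of which each library held 9 to 17, gave 3, 0, 0 and 0 UMIs of the A1 sum and 6, 15, 17 and 8 UMIs of Mcl1, which encodes the short-lived survival protein.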
